A study of Homo sapiens with 4 samples.

Results

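NDRG1, ALDOC and ANGPTL4 are genes known to be induced when cells are short of oxygen, and their transcript levels were examined in HT29 colorectal cancer cells sorted by the surface protein CD26. The 3 genes are represented by 3 probe sets, 1 each, of 6603 genes that could be named by a single symbol and of 54613 probe sets measured. They were chosen by measured values: every named probe set comes from a list that the authors made by comparing CD26+ replicate 1 with CD26- replicate 1, in which the smallest ratio is 2.00-fold and which therefore fixes a gap in that pair. In it ALDOC was 2.51-fold and NDRG1 2.61-fold higher on the CD26+ array, ANGPTL4 was 4.73-fold lower on the CD26+ array, and none of the 3 lay right at the limit. All member values below are therefore a description, given without a test. Probe sets outside the list could not be named, so further probe sets of these genes may exist unseen.

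HT29 is an established human colorectal adenocarcinoma line, grown in DMEM with fetal bovine serum, and neither the labels nor the methods name a low-oxygen treatment. Cells were sorted by FACS into CD26+ cells, the top 5% of CD26 staining, and CD26- cells, the lowest 5%. Total RNA was read on 4 arrays of the Affymetrix U133 Plus 2.0 design, 2 of CD26+ and 2 of CD26- cells. The labels call them biological replicates without saying what separates them, so the spread between arrays may be technical in part.

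In the presence of oxygen, prolyl hydroxylases of the EGLN family mark the alpha subunits of the hypoxia-inducible factors (HIF) for destruction through the VHL ubiquitin ligase. When oxygen is scarce the alpha subunits, HIF1A and EPAS1 among them, persist, pair with ARNT and bind short DNA elements with the core ACGTG or GCGTG near genes for glucose use, blood vessel growth and mitochondrial turnover. NDRG1 encodes a cytoplasmic stress-responsive protein that is also induced by iron chelation and in differentiating colon epithelium. ALDOC encodes aldolase C, a glycolytic enzyme that splits fructose 1,6-bisphosphate and is known chiefly from brain. ANGPTL4 encodes a secreted protein that inhibits lipoprotein lipase, and its gene is also a target of the fatty-acid sensing PPAR receptors.

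The bases in front of the transcription start are shown for ALDOC and ANGPTL4, because the HIF core is the feature that would place them in this pathway by sequence. Each run holds the 250 bases before the start, 5′ to 3′ on the gene's own strand, from RefSeq on GRCh38.p14, and capitals mark ACGTG or GCGTG on either strand. ALDOC lies at chr17:28576896-28577145 on the minus strand, and ANGPTL4 at chr19:8363905-8364154 on the plus strand.
ALDOC: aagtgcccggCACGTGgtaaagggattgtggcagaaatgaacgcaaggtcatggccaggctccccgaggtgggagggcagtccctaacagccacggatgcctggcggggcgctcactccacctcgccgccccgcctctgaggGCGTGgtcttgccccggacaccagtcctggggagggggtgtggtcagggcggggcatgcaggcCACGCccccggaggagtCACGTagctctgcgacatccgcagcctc
ANGPTL4: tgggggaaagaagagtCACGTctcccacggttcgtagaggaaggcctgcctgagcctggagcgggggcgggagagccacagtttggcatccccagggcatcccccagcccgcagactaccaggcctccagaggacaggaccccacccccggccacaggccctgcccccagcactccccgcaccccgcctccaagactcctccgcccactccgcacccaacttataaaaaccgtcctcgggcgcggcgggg
The ALDOC run held 5 matches at 4 separate places. One of these places is the palindrome CACGTG, read on both strands and starting 240 bases before the start, and the others begin 108, 45 and 28 bases before it. Of 27305 promoters in windows of 300 bases, which add 50 bases after the start, 2.76% held the core at 4 or more places. The ANGPTL4 run held 1 match, 234 bases before the start, and 48.4% of all promoters held at least 1. A match is a run of letters and not a measured binding site.

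The arrays were not alike, which bears on every value that follows. Their deposited signals shared a scale, with a mean between 499.93 and 499.96 on each array once the highest and lowest 2% of values were set aside. CD26+ replicate 2 stood apart: its profile correlated with the others at r between 0.291 and 0.321, against 0.869 to 0.887 among the other 3 arrays, and its median signal was 270.3 against 76.1 to 96.7 on those. The median of its control probe sets was 21457, against 1705 to 2407 on the other arrays. Every mean over the CD26+ arrays below includes this array. Signals of DPP4, the gene for CD26, were 6649 and 2513 on the CD26+ arrays and 1952 and 6465 on the CD26- arrays. The array labelled CD26- replicate 2 thus exceeded CD26+ replicate 2, against the order of their labels, and lay just below CD26+ replicate 1. The labels rest on surface protein and these signals on RNA, which are unlike measures. A further DPP4 probe set was highest on CD26- replicate 2, reaching 867, with CD26+ replicates 1 and 2 at 516 and 549. After quantile normalization the first DPP4 probe set was highest on CD26- replicate 2 too. Its log2 value there was 12.64, above 12.45 and 11.94 for CD26+ replicates 1 and 2. The list's own header marks its CD26+ array with a 2, although its values are those of the array labelled replicate 1, and the names used here follow the sample labels. No probe set of 54613 passed limma with Benjamini-Hochberg adjustment (background 0%), where 852 had an unadjusted p under 0.05 and the methods' t-test gave 1847 unadjusted and 0 adjusted. Limma also called 0 with any array but CD26+ replicate 1 left out, and 23148 without that one, when the array that stands apart was the lone CD26+ array. With 2 arrays against 2, an exact permutation test of a single value cannot go below p = 0.33.

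NDRG1 showed by far the widest range of the 3 genes. Its probe set 200632_s_at, aligned by the authors' list to chromosome 8, 134249418 to 134309468 on the minus strand in a build not given in the sources used here, gave 1917 and 77.7 on CD26+ replicates 1 and 2, against 733 and 29219 on CD26- replicates 1 and 2, in units of deposited signal. CD26- replicate 2 was the highest, the CD26+ arrays fell on either side of CD26- replicate 1, and the groups overlapped. Within each array the probe set ranked at percentiles 91.0 and 20.4 of all probe sets in CD26+ cells and at percentiles 81.4 and 99.6 in CD26- cells. Near the top of all probe sets on CD26- replicate 2, it was among the lower ones on CD26+ replicate 2.

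**Figure D1:**
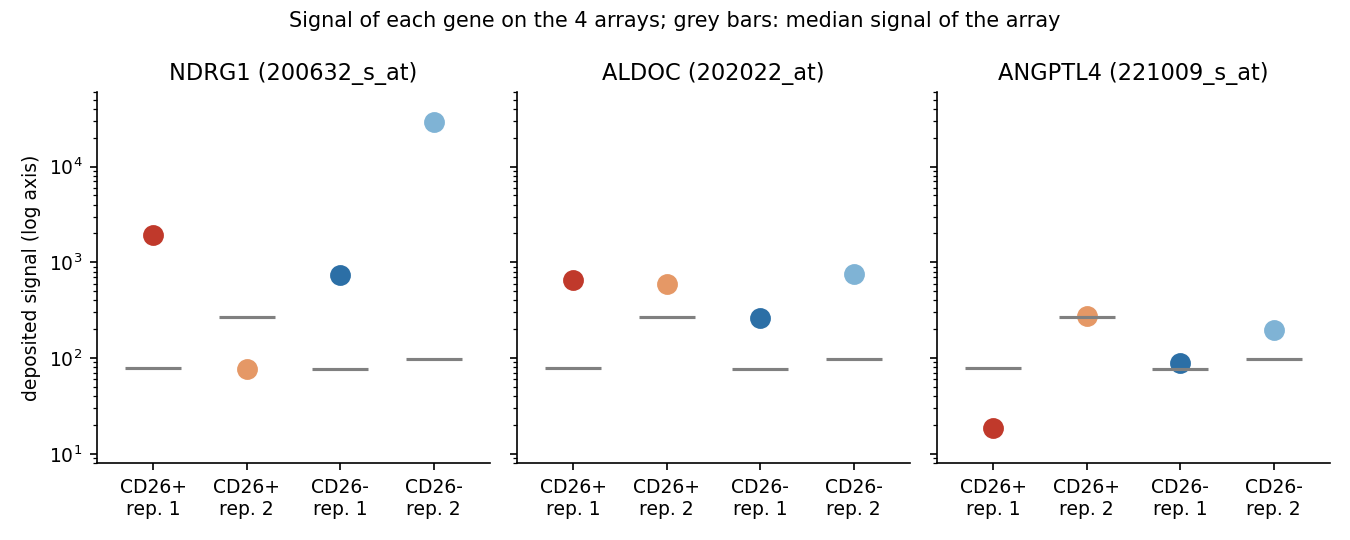
Deposited signals of NDRG1, ALDOC and ANGPTL4 on each of the 4 arrays, on a log axis, CD26+ arrays left of CD26- arrays, with each point 1 array and each grey bar the median signal of that array. NDRG1 reached 29219 on CD26- replicate 2 and was at 77.7 on CD26+ replicate 2, while ALDOC stayed between 263 and 759.8.

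The direction of NDRG1 depended on which arrays were set against each other. As deposited, CD26+ replicate 1 was 2.61 times CD26- replicate 1 but 0.0656 times CD26- replicate 2. CD26+ replicate 2 was 0.106 times CD26- replicate 1 and 0.00266 times CD26- replicate 2. After quantile normalization and log2(signal + 16), the scale used for all log2 values here, it averaged 8.18 in CD26+ cells and 12.25 in CD26- cells, a difference of -4.07 with a standard error of 2.39. That difference kept its sign with any 1 array left out but ranged widely. It was -6.72 without CD26+ replicate 1 and -6.69 without CD26- replicate 1, against -1.42 without CD26+ replicate 2 and -1.45 without CD26- replicate 2. The 2 arrays of the same CD26- label differed by 5.24 on the log2 scale, CD26- replicate 2 minus CD26- replicate 1, and only 5 of 6603 named genes had a larger difference in that direction. In bulk RNA, fewer cells that express a gene and less of its RNA per cell cannot be told apart.

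ALDOC varied least. Its probe set 202022_at, aligned to chromosome 17, 26900138 to 26903862 on the minus strand in the same unstated build, read 659 and 592 on the CD26+ arrays against 263 and 759.8 on the CD26- arrays. Both CD26+ arrays lay between the CD26- arrays, of which replicate 1 was the lowest of all 4 and replicate 2 the highest. Its percentiles were 80.2 and 71.2 in CD26+ cells and 68.5 and 81.0 in CD26- cells.

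The ALDOC group difference was small and had no settled sign. It averaged 9.10 in CD26+ cells and 9.03 in CD26- cells on the log2 scale, a difference of 0.07 with a standard error of 0.90. Leaving out 1 array at a time gave values from -0.49 to 0.62, and centring arrays on their medians in place of quantile normalization gave -0.23. Normalized CD26+ replicate 1 was above CD26- replicate 1 by 1.03, the pair that chose the gene, and differed from CD26- replicate 2 by -0.08. For CD26+ replicate 2 the differences were 0.22 from CD26- replicate 1 and -0.89 from CD26- replicate 2. Within CD26- cells, replicate 2 exceeded replicate 1 by 1.11.

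ANGPTL4 was the member whose order of arrays turned with normalization. Its probe set 221009_s_at, aligned to chromosome 19, 8429052 to 8439254 on the plus strand in the unstated build, read 18.8 and 277 on the CD26+ arrays against 88.9 and 197 on the CD26- arrays. As deposited, the CD26+ arrays were the lowest and the highest of the 4, and the groups overlapped. The highest value came from CD26+ replicate 2, whose median over all probe sets was itself 270.3. Relative to the median of its own array, ANGPTL4 stood at 0.239 and 1.03 in CD26+ cells against 1.17 and 2.05 in CD26- cells, so both CD26+ arrays were then below both CD26- arrays.

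After quantile normalization ANGPTL4 was at 5.75 and 7.23 on the log2 scale in CD26+ cells against 7.36 and 7.98 in CD26- cells. The groups did not overlap on this scale, as held for the same direction in 19.5% of the 6603 named genes. CD26+ replicate 2 and CD26- replicate 1 were only 0.13 apart, the CD26+ array being lower. The mean difference was -1.18 with a standard error of 0.93, and between -1.91 and -0.44 with 1 array left out. The value of -1.91 was that without CD26+ replicate 2.

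**Figure D2:**
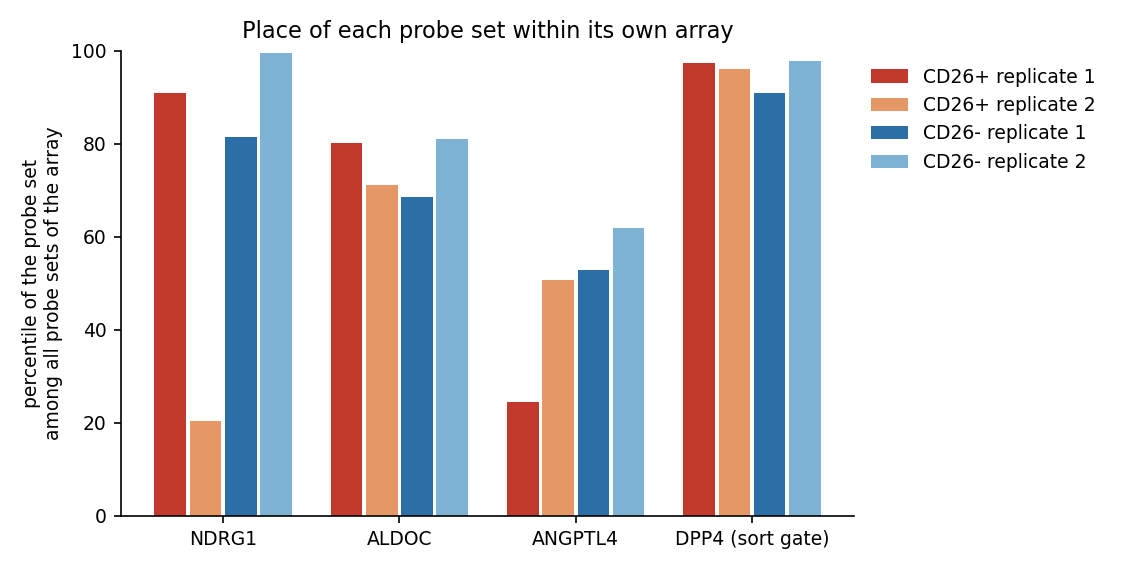
Percentile rank of each member's probe set among all probe sets of the same array, with DPP4, the gene of the sort gate, beside them and CD26+ bars left of CD26- bars, 1 bar per array. NDRG1 spans percentiles 20.4 to 99.6, ALDOC stays between 68.5 and 81.0, and ANGPTL4 lies between 24.5 and 62.0.

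Side by side, the mean log2 differences of the 3 genes were -4.07 for NDRG1, 0.07 for ALDOC and -1.18 for ANGPTL4. On CD26+ replicate 1 against both CD26- arrays, none of the 3 was at least 2-fold above both (background 12.9%) and ANGPTL4 alone was at least 2-fold below both (background 10.1%). These shares rest partly on the pair that chose the genes, and nothing is read from them. The CD26- arrays also differed from each other. On the normalized scale NDRG1 and ALDOC, 2 of the 3, were at least 2-fold higher on CD26- replicate 2 than on CD26- replicate 1 (background 16.5%), and ANGPTL4 was 0.62 higher on the log2 scale. All 3 were highest on CD26- replicate 2 among the 3 mutually correlated arrays (background 21.7%). CD26- replicate 1 belongs to the pair that chose the genes, and NDRG1 and ALDOC were chosen for being lower on it than on CD26+ replicate 1, so nothing is read from these counts either. CD26- replicate 2 is the array whose DPP4 RNA signal exceeded that of CD26+ replicate 2, and the part of this in the members' values was not tested.

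**Figure D3:**
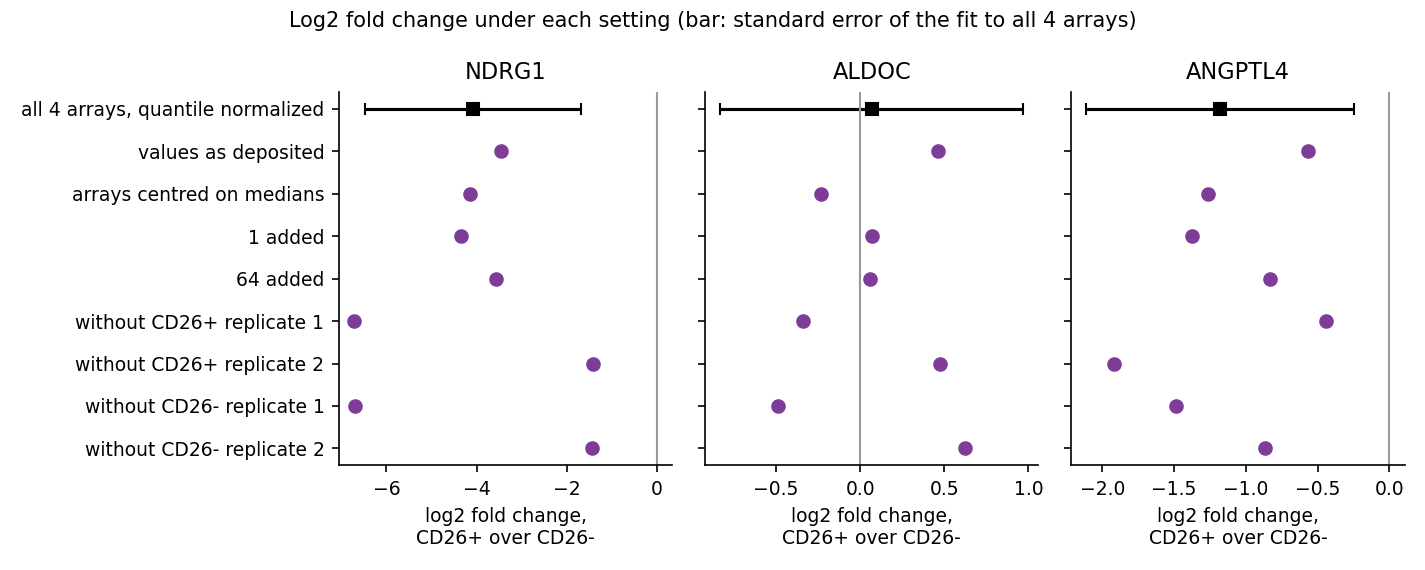
Log2 fold change, CD26+ over CD26-, of the 3 members for all 4 arrays (square, with a bar of 1 standard error) and under the other scalings, added constants and arrays left out (circles), with the vertical line at 0. Over the settings drawn, NDRG1 lies between -6.72 and -1.42, ANGPTL4 lies between -1.91 and -0.44, and ALDOC falls on both sides of 0 from -0.49 to 0.62.

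Genes whose profile over the 4 arrays came closest differed from member to member. Likeness was measured over 4 arrays as the Euclidean distance between log2 values centred on each gene's own mean, among 6602 other named genes. Nearest to NDRG1 was ANXA13, an annexin of the intestinal epithelium, at a distance of 1.05, at 4598 and 72.6 on the CD26+ arrays against 706 and 25828 on the CD26- arrays. HEPH, the ferroxidase that helps enterocytes export iron, followed at 1.18 with 2937 and 92.7 in CD26+ cells against 731 and 13782 in CD26- cells. FXYD3, a regulator of the sodium pump, came next at 1.88. All 3 of these neighbours were highest on CD26- replicate 2 and lowest on CD26+ replicate 2, as NDRG1 was.

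ALDOC was closest to HPCAL1, which encodes a neuronal calcium sensor, at 0.0525, then to VANGL2, a planar polarity protein, and to MTMR12, a myotubularin-related protein, both at 0.129. ANGPTL4 was closest to TMEM111 at 0.188, FCHO2, a protein of early endocytic pits, at 0.254 and METAP1D, a mitochondrial methionine aminopeptidase, at 0.264. The members were not near each other by this measure. ALDOC ranked 2436 and ANGPTL4 3066 from NDRG1, ANGPTL4 ranked 2854 from ALDOC, and ALDOC ranked 1281 from ANGPTL4. These distances describe 4 arrays only.

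Of the members' own families, 4 of 12 relatives were named, and none was called by limma. NDRG2, a relative of NDRG1 with a growth-restraining role in several tissues, had signals of 495 and 1393 in CD26+ cells against 36.7 and 595 in CD26- cells for 206453_s_at. Its second probe set 214279_s_at gave 68.3 and 534 in CD26+ cells against 33.9 and 9.64 in CD26- cells. Both probe sets were highest on CD26+ replicate 2, where NDRG1 was lowest. NDRG3, which binds lactate and is known to accumulate in hypoxia as a protein, had 4625 and 324 in CD26+ cells against 1904 and 2373 in CD26- cells. Its mean log2 difference of -1.25 with a standard error of 1.58 was 1.0 without CD26+ replicate 2.

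ANGPTL2, an angiopoietin-like relative of ANGPTL4, was highest on CD26+ replicate 2 as deposited. It had 13.6 and 1491 in CD26+ cells against 66.5 and 15.5 in CD26- cells, a mean log2 difference of 1.97 that was -0.74 without CD26+ replicate 2.

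The oxygen-sensing machinery itself was represented by 5 of 15 listed genes, and 0 were called by limma in either direction, nor did any have an unadjusted p under 0.05. EGLN1, the main prolyl hydroxylase of the HIF alpha subunits, had signals of 1335 and 15.0 in CD26+ cells against 3332 and 2559 in CD26- cells, lower on both CD26+ arrays. After normalization that order held in 19.5% of the named genes. EPAS1, the HIF-2 alpha subunit, had 3259 and 33.2 in CD26+ cells against 1574 and 3325 in CD26- cells and overlapped. ARNT, the partner of the alpha subunits, had 658 and 1822 in CD26+ cells against 273 and 547 in CD26- cells for 218221_at. Its probe set 218222_x_at gave 104 and 103 in CD26+ cells against 16.4 and 33.6 in CD26- cells as deposited. On the normalized log2 scale 218222_x_at overlapped, at 7.53 and 5.90 in CD26+ cells against 5.71 and 6.04 in CD26- cells. The probe set 230619_at gave 401 and 126 in CD26+ cells against 151 and 558 in CD26- cells, so the ARNT probe sets disagreed. CITED2, which competes with HIF for its coactivators, had 450 and 9794 in CD26+ cells against 223 and 280 in CD26- cells. HIF3A, a further alpha subunit, had 74.5 and 195 in CD26+ cells against 14.3 and 23.0 in CD26- cells for 219319_at, but 27.9 and 79.5 against 60.1 and 35.7 for 222123_s_at, so its probe sets disagreed. These probe sets, like those of all named genes, come from a list that already holds a 2-fold gap in 1 pair of arrays.

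Among 51 further hypoxia targets 17 were named, and limma called 0 higher and 0 lower, with none at an unadjusted p under 0.05. Their median mean log2 difference was -0.32, against 0.04 for all 6603 named genes, but it was 0.13 without CD26+ replicate 2. CD26+ replicate 1 was at least 2-fold above both CD26- arrays for 3 of the 17, DDIT4, CXCR4 and TF, where the background is 12.9%, and at least 2-fold below both for 2, ERO1L and INSIG2, where it is 10.1%. DDIT4, a stress-induced inhibitor of mTORC1, had signals of 8052 and 1645 in CD26+ cells against 1346 and 3253 in CD26- cells. TF, the iron carrier transferrin, had 64.6 and 600.0 in CD26+ cells against 21.7 and 5.73 in CD26- cells, while its other probe set 214063_s_at had 16.6 and 197 in CD26+ cells against 74.3 and 7.09 in CD26- cells and overlapped. CXCR4, the receptor for the chemokine CXCL12, had 1139 and 1987 in CD26+ cells against 184 and 513 in CD26- cells for 209201_x_at. A further probe set, 211919_s_at, had 1143 and 1345 in CD26+ cells against 270.4 and 513 in CD26- cells, the same order of groups. The third, 217028_at, had 10609 and 27.5 in CD26+ cells against 529 and 2919 in CD26- cells, so 2 of 3 CXCR4 probe sets had both CD26+ arrays above both CD26- arrays. The share of all named genes with that order was not computed, and nothing is read from it.

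Other targets ran the opposite way. PLOD2, the collagen lysyl hydroxylase, had signals of 391 and 316 in CD26+ cells against 806 and 2845 in CD26- cells. ERO1L, now ERO1A, which reoxidises the disulphide machinery of the endoplasmic reticulum, had 793 and 23.2 in CD26+ cells against 2296 and 3030 in CD26- cells. INSIG2, a brake on sterol synthesis, had 577 and 113 in CD26+ cells against 1573 and 1547 in CD26- cells.

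The CD26- arrays differed in some of the hypoxia targets too, all of them named through the same pair of arrays. CD26- replicate 2 was at least 2-fold above CD26- replicate 1 for 6 of 17, EFNA3, BNIP3L, PLOD2, JMJD6, ZNF395 and DDIT4, with a background of 16.5%, and at least 2-fold below it for TF and RORA. It was the highest of the 3 mutually correlated arrays for 7 of 17, with a background of 21.7%. The median of CD26- replicate 2 minus CD26- replicate 1 was 0.86 for the targets and 0.04 for all named genes. BNIP3L, a mitophagy receptor, had 1136 on CD26- replicate 2 and 205 on CD26- replicate 1, beside 446 and 2093 on the CD26+ arrays.

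**Figure D4:**
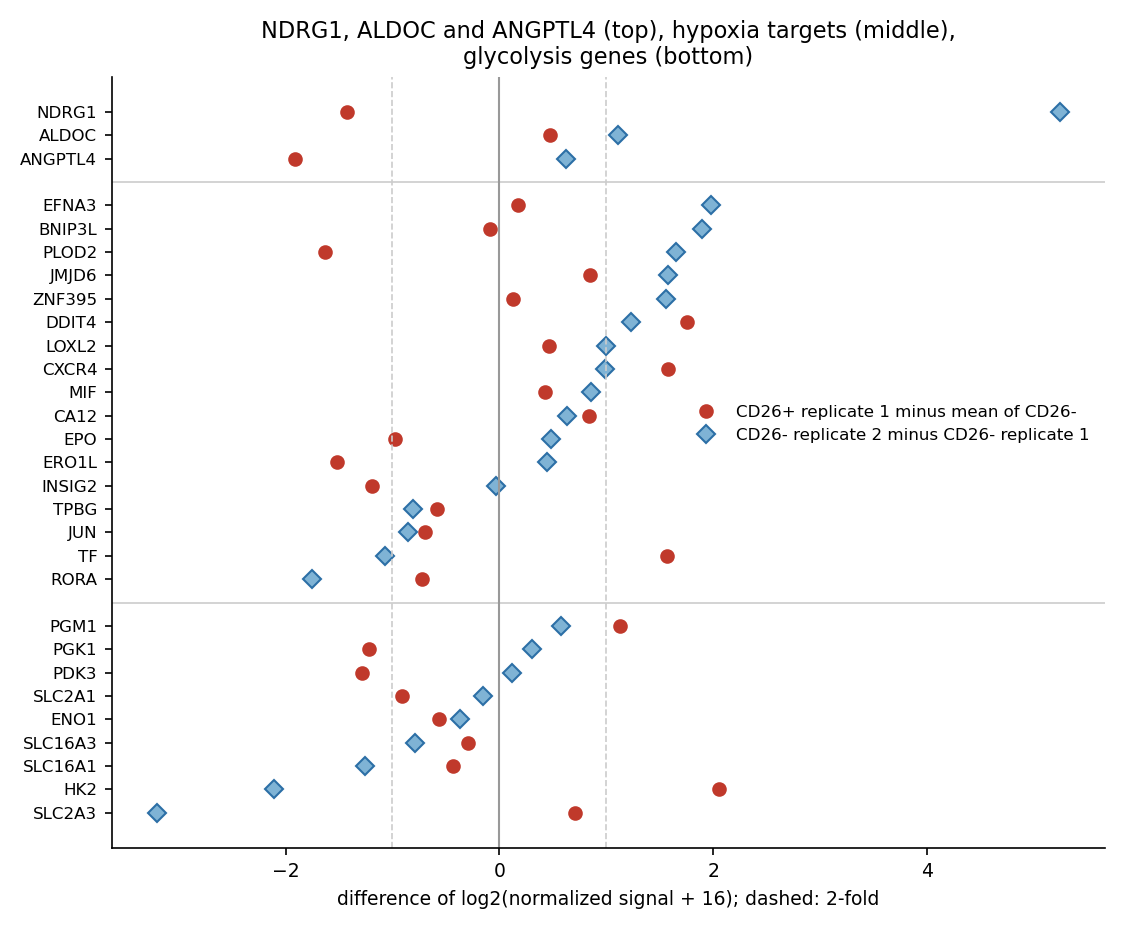
Differences on the normalized log2 scale for the 3 members (top), the 17 named hypoxia targets (middle) and the 9 named glycolysis genes (bottom). Red circles are CD26+ replicate 1 minus the mean of the CD26- arrays, blue diamonds are CD26- replicate 2 minus CD26- replicate 1, and dashed lines mark 2-fold. The diamonds of all 3 members lie above 0 and reach 5.24 for NDRG1, while 3 glycolysis diamonds lie below the 2-fold line.

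Glycolysis, the pathway in which ALDOC acts, was represented by 9 of 27 listed genes, and 0 were called in either direction by limma, with none at an unadjusted p under 0.05. Their median mean log2 difference was -1.51 against 0.04 for all named genes, and -0.44 without CD26+ replicate 2. SLC2A1, the widely expressed glucose transporter, had signals of 3958 and 1268 in CD26+ cells against 8026 and 6343 in CD26- cells, lower on both CD26+ arrays. ENO1, enolase, had 163 and 78.3 in CD26+ cells against 348 and 288 in CD26- cells on its only named probe set 217294_s_at and was likewise lower on both. After normalization that order held in 19.5% of the named genes. PGM1, which interconverts glucose phosphates, had 3159 and 92.3 in CD26+ cells against 1051 and 1665 in CD26- cells. PDK3, a kinase that shuts pyruvate dehydrogenase, had 37.1 and 1453 in CD26+ cells against 109 and 150 in CD26- cells, and as deposited its CD26+ arrays were the lowest and the highest, as for ANGPTL4.

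No glycolysis gene was at least 2-fold higher on CD26- replicate 2 than on CD26- replicate 1, where 16.5% of named genes were. For 3 of the 9, SLC2A3, HK2 and SLC16A1, CD26- replicate 2 was at least 2-fold below CD26- replicate 1. SLC16A1, a lactate transporter, had 1542 on CD26- replicate 2 and 3967 on CD26- replicate 1, beside 1768 and 181 on the CD26+ arrays. HK2, a hexokinase, had 219 and 179 in CD26+ cells against 86.7 and 10.3 in CD26- cells, and PGK1, phosphoglycerate kinase, had 30.7 and 473 in CD26+ cells against 78.3 and 131 in CD26- cells. The list aligns the HK2 and PGK1 probe sets to the strand opposite the gene. The probe set 215867_x_at, which stands for CA12 among the hypoxia targets, is aligned to another chromosome, so these 3 may not report their genes. Other CA12 probe sets align to its own chromosome 15. Of those only 203963_at had CD26+ replicate 1 at least 2-fold above both CD26- arrays, by 2.06 and 1.08 on the normalized log2 scale. CA12 is outside the count of such targets above because 215867_x_at stands for it.

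The PPAR and lipoprotein lipase genes, the other setting in which ANGPTL4 is known, included 6 named of 18, with 0 called in either direction by limma and none at an unadjusted p under 0.05. RXRA, the nuclear receptor partner of the PPARs, had signals of 544 and 251 in CD26+ cells against 152 and 236 in CD26- cells. LPL, the lipase that ANGPTL4 inhibits, had 64.8 and 586 in CD26+ cells against 17.1 and 50.2 in CD26- cells, while the endothelial lipase LIPG had 552 and 334 in CD26+ cells against 3486 and 1097 in CD26- cells. FABP1, a fatty acid binding protein of liver and intestine, had 151 and 74.6 in CD26+ cells against 23.6 and 247 in CD26- cells. On the deposited scale RXRA and LPL had both CD26+ arrays above both CD26- arrays, with a median over all probe sets of 270.3 on CD26+ replicate 2. On the normalized log2 scale RXRA overlapped, at 9.29 and 7.09 in CD26+ cells against 7.91 and 8.17 in CD26- cells. LPL kept its order, at 6.95 and 8.67 against 5.74 and 6.44. The share of all named genes with that order was not computed, and nothing is read from it.

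Probe sets of genes used as markers of colon epithelium and of other cell types varied between the arrays as well. The fractions were sorted from the cultured line HT29, so the sums below describe transcript signal. No other cell type is inferred from them. The epithelial and fibroblast sums were higher on CD26- replicate 2 than on CD26- replicate 1, as all 3 members were, and the immune and endothelial sums were lower there. Summed signals of the 7 named colon epithelial markers of 12 were 57254 and 2881 on the CD26+ arrays against 62654 and 132738 on the CD26- arrays, the same order at its ends as NDRG1. On the probe set that stands for each gene, all 7 were highest on CD26- replicate 2 among the 3 mutually correlated arrays (background 21.7%). On these probe sets 5 were at least 2-fold above CD26- replicate 1 (background 16.5%). KRT20, a keratin of differentiated colon epithelium, had 3655 and 36.3 in CD26+ cells against 10260 and 32152 in CD26- cells. CDH1, KRT19, VIL1 and LGALS4 were, like KRT20, lowest on CD26+ replicate 2, but CDX1 and CDH17 were not. CDX1 had 54.0 and 380 in CD26+ cells against 20.5 and 1015 in CD26- cells. CDH17 had 106 and 814 in CD26+ cells against 235 and 3622 in CD26- cells. Of the probe sets left out of the sum, that of CDH1 was highest on CD26+ replicate 2, at 848, and that of VIL1 was lowest there. Among the 3 mutually correlated arrays neither was highest on CD26- replicate 2. The VIL1 one had 1972 on CD26+ replicate 1 against 527 and 1192 on the CD26- arrays. The CDH1 one had 47.7 on CD26+ replicate 1 against 108 and 99.7 on the CD26- arrays. The 3 named fibroblast markers of 9 summed to 468 and 5113 in CD26+ cells against 54.2 and 995 in CD26- cells. The 3 immune markers of 9 summed to 2399 and 328 in CD26+ cells against 6844 and 4522 in CD26- cells, most of it LYZ except on CD26+ replicate 2. The 1 named endothelial marker of 6, EMCN, gave 18.4 and 504 in CD26+ cells against 38.1 and 23.0 in CD26- cells. The part of these markers in the members' values was not tested.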

How the data were processed

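RNA of sorted HT29 cells was measured on 4 Affymetrix arrays, 2 CD26+ and 2 CD26-. Each deposited value is the intensity of a probe set on a linear scale, as the authors deposited it. Their methods name Genespring GX and Genomatix for the analysis, without saying which step made these values. How probes were summarized and scaled is not stated in the sources. A second deposited table holds the authors' comparison of 1 pair of arrays as a log2 value, a ratio and a score with a sign. Those columns served only to learn which pair the table holds and none of their values is printed, while its gene symbols and alignments named the probe sets. It lists 11430 probe sets, 8414 of them with 1 symbol.

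Intensities were quantile normalized, log2(intensity + 16) was taken, 62 control probe sets were left out, and the limma package (3.58.1, under R 4.3.3) was fitted to 54613, CD26+ minus CD26-, two-sided, Benjamini-Hochberg adjusted, threshold 0.05. The fit was run on simulated data with known changes. Recovery was required only of the larger changes and at a spread below the median residual SD of 0.98 here. That run therefore does not show what these arrays could detect. A gene stands for its named probe set with the highest mean. Probe sets outside the authors' list have no gene name here, so a gene may have further probe sets that are not shown. The members and the gene lists were chosen with earlier results of these data known. Named genes are the members, every named relative, of each other list the 4 with the largest difference of CD26+ replicate 1 from the CD26- mean and the same sign against both CD26- arrays, and the 3 nearest profiles of each member. Other genes were named after their values were seen. Some genes that this rule takes are not reported here. The 3 members were matched to RefSeq by Entrez identifier. Precision is limited by having 4 arrays, whose mutual spread is all that a p-value measures here. Alternatives were the deposited scale, median centring, pseudocounts of 1 and 64, a mean intensity of at least 100, a robust trended prior, a block for the replicate number, leaving out each array, 3 arrays renormalized without CD26+ replicate 2, averaging the probe sets of a gene, and the methods' t-test.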

Additional observations from a re-analysis of the deposited data

How the results depend on the processing

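The NDRG1 difference of -4.07 stayed negative under all 11 alternatives. Among these, the replicate block and the average over its only named probe set could not change it. It lay between -6.72 and -1.42 with 1 array left out and at -1.30 with 3 arrays normalized without CD26+ replicate 2. ANGPTL4, at -1.18, also stayed negative, between -1.91 and -0.44 with 1 array left out and at -2.02 with those 3 arrays. ALDOC, at 0.07, changed sign with median centring, to -0.23, and with 1 array left out ranged from -0.49 without CD26- replicate 1 to 0.62, with -0.34 without CD26+ replicate 1. The hypoxia targets' median of -0.32 became 0.31 on the deposited scale, where all probe sets shifted by a median of 0.63 against 0.11 on the main scale, and 0.12 with those 3 arrays. It lay between -0.81 and 0.13 with 1 array left out, the highest without CD26+ replicate 2. The glycolysis median of -1.51 became -0.46 with those 3 arrays and lay between -2.10 and -0.44 with 1 array left out. The cause was not tested. Relative to the median shift of each scale, NDRG1 stood at -4.18 on the main scale and -4.09 on the deposited one, ALDOC at -0.04 and -0.17, and ANGPTL4 at -1.28 and -1.20. Limma called 0 probe sets in the main fit and 0 to 23148 with 1 array left out, where 23148 came without CD26+ replicate 1 and the lone CD26+ array was assumed to vary like the CD26- arrays. A replicate block called 1 probe set and left the members at -4.07, 0.07 and -1.18, as it must with 1 array of each group per block. The replicate numbers were not taken to pair the arrays, since the labels do not say what separates the replicates. Deviations of same-numbered arrays correlated at 0.037. This value cannot decide on pairing, because CD26+ replicate 2, which enters it, stands apart from every other array. Unadjusted calls were 852 in the main fit, 3345 with the block and 3227 without CD26+ replicate 2. Leaving out either CD26+ array took the residual SD of the median probe set to 0.37, against 0.98 with all 4 arrays. With a lone CD26+ array only the CD26- arrays have a residual, so this value does not set the CD26+ arrays apart. Dim probe sets such as ANGPTL4 on CD26+ replicate 1, near a signal of 18.8, are limited by the background of the array, which the deposited values do not give.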
